A study of Mus musculus with 4 samples.

Results

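Red blood cells carry oxygen on haemoglobin, a protein of paired alpha and beta globin chains that each hold a haem group. Mature mouse red cells in the circulation have lost their nucleus, and the youngest of them, reticulocytes, still hold globin mRNA, so globin reads in a tissue library report the blood left in that tissue and any red cell precursors in its marrow. Globin transcripts, the haem enzyme gene of red cells and their chief membrane anion exchanger are therefore used as a measure of blood RNA. The 6 genes described here were chosen by name for that reason, out of 45706 genes in the table. They are the adult alpha globin genes Hba-a1 and Hba-a2, the adult beta globin genes Hbb-bs and Hbb-bt, Alas2 (the first enzyme of haem synthesis in red cell precursors) and Slc4a1 (band 3, the anion exchanger of the red cell membrane).

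RNA-seq was done on whole mouse digit tips that had regenerated for 14 days since amputation, in 1 library each of Sp6 cKO, Sp8 cKO, Sp6+Sp8 cKO and wildtype. In the conditional knockouts (cKO) of the epidermal transcription factor genes Sp6 and Sp8, deletion was induced by tamoxifen at 75 mg/kg daily for 5 days, with 5 days of rest before amputation. Whether the wildtype mice had tamoxifen, and the Cre driver, strain, sex, age and number of animals or digits behind each library, are not stated in what was used here. The 3 cKO libraries belong to batch 1 and the wildtype library to batch 3, so wherever wildtype is the comparator, knockout and batch cannot be told apart. With 1 library per genotype no replicate check exists and no difference carries a test. Every interval below is a 95% interval for counting error alone.

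Total counts per library were between 12588511 and 21834883. Sp6 stood at 29.2, 95.6 and 57.8 CPM (counts per 1000000 library counts) in the Sp6, Sp8 and Sp6+Sp8 cKO libraries, against 97.7 CPM in wildtype. Sp8 was at 66.1, 16.8 and 13.4 CPM in the same order of cKO libraries, against 63.9 CPM in wildtype. The tissue label was checked against its markers, and all 8 keratinocyte and nail genes and all 8 bone and connective tissue genes on the lists were measured in these libraries. Xist, the RNA of the inactive X chromosome, was at 1963, 27.9 and 3528 CPM in the Sp6, Sp8 and Sp6+Sp8 cKO libraries, against 1526 CPM in wildtype. Sp8 cKO thus stood far below the other 3 libraries for Xist.

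The adult globin genes lie in pairs of near-identical copies, and their sequences bear on how far each copy can be read on its own. Hba-a1 (ENSMUSG00000069919) lies at chr11:32283511-32284465 and Hba-a2 (ENSMUSG00000069917) at chr11:32296489-32297298, both on the plus strand of GRCm38. Their coding parts, 429 bases each in GENCODE M21, differ at 1 base, C381T, counted from the A of the start codon and written as the Hba-a1 base, the position and the Hba-a2 base. The 29 bases around that position are shown because they are the only coding stretch that separates these genes, with the differing base in capitals. It lies at base 32284343 of chromosome 11 in Hba-a1 and at 32297160 in Hba-a2.
Hba-a1: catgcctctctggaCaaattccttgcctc
Hba-a2: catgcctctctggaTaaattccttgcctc
The change leaves the amino acid the same. Over the 538 bases that the main transcripts share, 537 are identical. The remaining difference is in the ends, where the annotated Hba-a1 transcript of 699 bases begins further upstream than the Hba-a2 transcript of 554 bases. Of the 405 windows of 150 bases, the read length, in the Hba-a2 transcript, 266 (65.7%) occur letter for letter in Hba-a1.

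The beta pair is close to identical in its coding part and less so outside it. Hbb-bs (ENSMUSG00000052305) lies at chr7:103826534-103828096 and Hbb-bt (ENSMUSG00000073940) at chr7:103812524-103813996, both on the minus strand. Their coding parts of 444 bases also differ at 1 base, C417T on the same convention with Hbb-bs first, at chromosome 7 positions 103826692 and 103812683, and the amino acid is again the same.
Hbb-bs: gtggctggagtggcCgctgccctggctca
Hbb-bt: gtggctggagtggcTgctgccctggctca
Outside the coding part these genes diverge, with 88 of 120 aligned bases identical after the stop codon and 44 of 52 before the start codon. Windows of 150 bases from Hbb-bt were found whole in Hbb-bs in 281 of 554 cases (50.7%).

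The deposited estimated counts carry the mark of this sharing. Each globin gene had fractional counts, yet Hba-a1 and Hba-a2 summed to 3347.000, 7088.000 and 4169.000 in the Sp6, Sp8 and Sp6+Sp8 cKO libraries, and to 4700.001 in wildtype. Hbb-bs and Hbb-bt likewise summed to within 0.01 of a whole number in all 4 libraries. Fragments were thus divided within each pair, and the pair sums do not depend on how that division was made. Levels are therefore given for each gene and for the alpha and beta sums. Alas2 (ENSMUSG00000025270, chrX:150547375-150570638, plus strand) also had fractional counts, and Apex2, whose annotated span of chrX:150519519-150589868 on the minus strand covers it, completed them to whole numbers in all 4 libraries. Its counts are uncertain to that extent, since the labels do not say whether strand was used in counting. Slc4a1 (ENSMUSG00000006574, chr11:102348824-102366203, minus strand) had whole counts throughout.

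Upstream sequences are shown because all 4 globin genes were more than 2-fold higher in Sp8 cKO than in wildtype. They are the 150 bases before the RefSeq start on GRCm38.p6, for the 5 of the 6 genes with an entry, and capitals mark every CCAAT box, every CACCC box, every TATAA motif and every GATAA motif on either strand, with no overlap between matches. The windows are chr11:32283522-32283671 for Hba-a1, chr11:32296342-32296491 for Hba-a2, chr7:103827929-103828078 for Hbb-bs, chr7:103813924-103814073 for Hbb-bt and chrX:150547267-150547416 for Alas2, read on the minus strand for the beta genes and on the plus strand for the others.
Hba-a1: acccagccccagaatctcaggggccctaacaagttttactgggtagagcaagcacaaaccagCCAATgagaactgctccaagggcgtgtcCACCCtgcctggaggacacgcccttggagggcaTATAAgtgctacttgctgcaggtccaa
Hba-a2: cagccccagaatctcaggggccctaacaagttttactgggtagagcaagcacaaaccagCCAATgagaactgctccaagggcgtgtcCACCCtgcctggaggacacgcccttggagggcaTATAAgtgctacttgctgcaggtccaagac
Hbb-bs: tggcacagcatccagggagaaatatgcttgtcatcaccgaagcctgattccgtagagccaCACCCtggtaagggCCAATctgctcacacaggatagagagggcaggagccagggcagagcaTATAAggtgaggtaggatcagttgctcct
Hbb-bt: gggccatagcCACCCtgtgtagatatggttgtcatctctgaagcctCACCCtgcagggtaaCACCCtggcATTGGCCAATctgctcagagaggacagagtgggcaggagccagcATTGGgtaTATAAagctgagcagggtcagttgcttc
Alas2: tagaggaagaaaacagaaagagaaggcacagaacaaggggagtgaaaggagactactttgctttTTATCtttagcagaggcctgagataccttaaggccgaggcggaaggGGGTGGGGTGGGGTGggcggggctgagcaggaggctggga
The alpha windows are identical over the 147 bases they share, and the beta windows over 98 of 127 aligned bases. Each of the 4 globin windows holds a CCAAT box, a CACCC box and a TATAA motif, and the last of these begins between 27 and 30 bases before the start. Of 32851 RefSeq promoter windows of the same length 24.5% hold the CCAAT box, 37.4% the CACCC box and 14.2% the TATAA motif, and 1.1% hold all 3. The Alas2 window holds the CACCC box 3 times on the opposite strand. It also holds, once on that strand, the GATAA motif, a core of sites read by GATA factors, which is found in 13.3% of windows. These matches describe letters and not bound sites.

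Globin transcripts were a small part of every library and were highest in Sp8 cKO. The 4 globin genes together took 0.0327%, 0.0679% and 0.0349% of all counts in the Sp6, Sp8 and Sp6+Sp8 cKO libraries, against 0.0257% in wildtype. As levels these were 331, 678 and 344 CPM, against 258 CPM in wildtype. In whole tissue, fewer red cells and less RNA per cell cannot be told apart. The globin sum was 2.63-fold higher in Sp8 cKO than in wildtype (95% interval 2.54 to 2.72), 1.33-fold higher in Sp6+Sp8 cKO (1.28 to 1.38) and 1.28-fold higher in Sp6 cKO (1.23 to 1.33). The 3 folds share the wildtype library. Sp8 cKO also stood apart within batch 1.

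**Figure D1:**
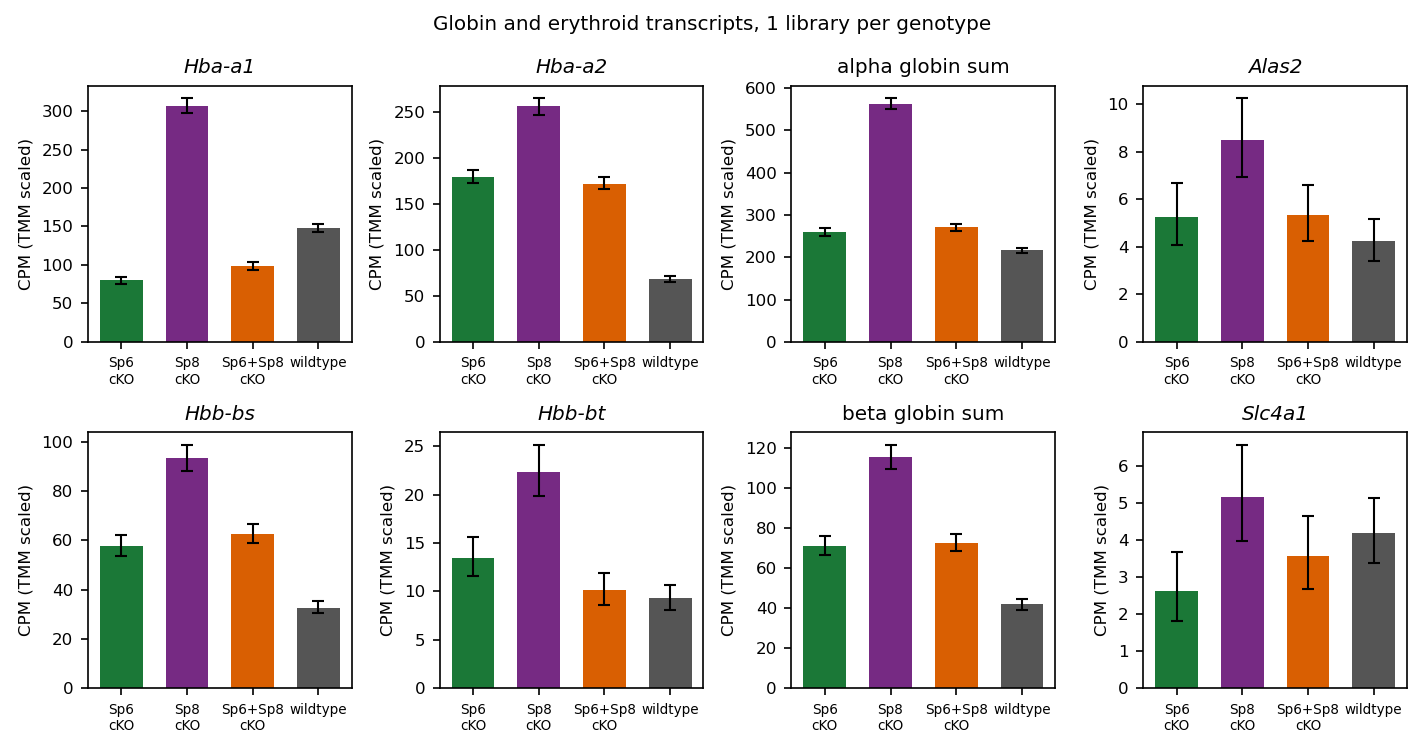
Level of each gene and of the alpha and beta globin sums in CPM (y axis, from 0) in each of the 4 libraries (x axis), with 95% Poisson intervals for counting error as error bars. Sp8 cKO has the tallest bar in all 8 panels, and Hba-a1 and Hba-a2 put the other libraries in different orders.

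Taken gene by gene, the alpha copies gave different orders below Sp8 cKO, which was highest for both. Hba-a1 was at 79.9, 307 and 98.9 CPM in the Sp6, Sp8 and Sp6+Sp8 cKO libraries, against 148 CPM in wildtype. Hba-a2 was at 180, 256 and 172 CPM in those cKO libraries, against 68.1 CPM in wildtype. Wildtype was thus second highest for one copy and lowest for the other, and in Sp6 cKO the log2 ratios to wildtype were -0.89 for Hba-a1 and 1.40 for Hba-a2. Their sum was 260, 563 and 271 CPM in the Sp6, Sp8 and Sp6+Sp8 cKO libraries, against 216 CPM in wildtype. The log2 ratios of the alpha sum to wildtype were 0.26, 1.38 and 0.33, which lie between those of its copies in each case.

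The beta globin genes kept 1 order more closely. Hbb-bs, the more abundant, was at 57.8, 93.4 and 62.7 CPM in the Sp6, Sp8 and Sp6+Sp8 cKO libraries, against 32.7 CPM in wildtype. Hbb-bt was at 13.5, 22.4 and 10.1 CPM in the cKO libraries, against 9.29 CPM in wildtype, and the intervals of Sp6+Sp8 cKO and wildtype overlapped. The beta sum was 71.3, 116 and 72.8 CPM in the Sp6, Sp8 and Sp6+Sp8 cKO libraries, against 42.0 CPM in wildtype. It was 1.70-fold higher in Sp6 cKO than in wildtype (95% interval 1.55 to 1.86), 2.75-fold higher in Sp8 cKO (2.53 to 2.99) and 1.73-fold higher in Sp6+Sp8 cKO (1.59 to 1.89). In Sp6 cKO and Sp6+Sp8 cKO the interval of the beta fold lay above that of the alpha fold, which ran from 1.15 to 1.26 and from 1.20 to 1.31.

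The red cell genes outside the globin loci had far fewer counts. Alas2 had 68, 107 and 82 counts in the Sp6, Sp8 and Sp6+Sp8 cKO libraries, or 5.27, 8.49 and 5.33 CPM, against 92 counts or 4.23 CPM in wildtype. It was 2.01-fold higher in Sp8 cKO than in wildtype, with a log2 interval of 0.59 to 1.42 and a log2 ratio of 0.98, while the intervals of the other cKO libraries against wildtype included 1. Alas2 is X-linked, and the Sp8 cKO library that was highest for it was also the one with the low Xist value. Whether the Xist difference had a part in the Alas2 level was not tested. Slc4a1 had 34, 65 and 55 counts in the cKO libraries, or 2.64, 5.16 and 3.57 CPM, against 91 counts or 4.19 CPM in wildtype. For Slc4a1 wildtype was second highest and Sp6 cKO lowest, 1.59-fold lower than wildtype (95% interval 1.06 to 2.43), and the interval of Sp8 cKO against wildtype included 1.

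Per kilobase of the main transcript, the levels fell into the same tiers in all 4 libraries, with the alpha genes above Hbb-bs, then Hbb-bt, Alas2 and Slc4a1. In Sp8 cKO they were 439 CPM per kilobase for Hba-a1, 462 for Hba-a2, 149 for Hbb-bs, 31.8 for Hbb-bt, 4.17 for Alas2 and 1.14 for Slc4a1. Wildtype had 212 CPM per kilobase for Hba-a1, 123 for Hba-a2, 52.1 for Hbb-bs, 13.2 for Hbb-bt, 2.08 for Alas2 and 0.921 for Slc4a1. On this scale the order of Hba-a1 and Hba-a2 was reversed between each cKO library and wildtype, though in Sp8 cKO the counting intervals of the copies overlapped. Without division by transcript length Sp8 cKO had the order of wildtype, with Hba-a1 at 307 CPM and Hba-a2 at 256 CPM.

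Ratios within a library do not depend on the scaling between libraries. They are free of how much blood the library held only if all their counts come from red cells, which was not tested. Hba-a2 made up 69.2%, 45.5% and 63.5% of alpha globin counts in the Sp6, Sp8 and Sp6+Sp8 cKO libraries, against 31.5% in wildtype, and no interval overlapped another (exact binomial, 30.2% to 32.9% in wildtype). These intervals take the divided counts as observed and leave out error in dividing shared fragments, so they are too narrow for the split. Hbb-bs made up 81.1%, 80.7% and 86.1% of beta globin counts in the cKO libraries, against 77.9% in wildtype. The share of Hba-a2 thus spread over a far wider range than that of Hbb-bs. The alpha split rests on 1 coding base and the annotated transcript ends. Whether the strains of these mice differ there, which would move the share and the Hba-a1 and Hba-a2 values alike, was not tested. Alpha counts per beta count were 3.64, 4.86 and 3.72 in the Sp6, Sp8 and Sp6+Sp8 cKO libraries, against 5.14 in wildtype. By this ratio Sp8 cKO (95% interval 4.59 to 5.15) overlapped wildtype (4.79 to 5.53), and Sp6 cKO (3.38 to 3.92) overlapped Sp6+Sp8 cKO (3.48 to 3.98).

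Set against the globin counts of the same library, Alas2 stayed within overlapping intervals in all 4 libraries and Slc4a1 did not. Alas2 had 15.9, 12.5 and 15.5 counts per 1000 globin counts in the Sp6, Sp8 and Sp6+Sp8 cKO libraries, against 16.4 in wildtype. Slc4a1 had 7.97, 7.61 and 10.4 counts per 1000 globin counts in the cKO libraries, against 16.2 in wildtype. Its wildtype interval, 13.0 to 19.9, lay above those of Sp6 cKO (5.51 to 11.2) and Sp8 cKO (5.86 to 9.70) and overlapped that of Sp6+Sp8 cKO (7.82 to 13.6). Alas2 counts per Slc4a1 count were 2.00, 1.65 and 1.49 in the Sp6, Sp8 and Sp6+Sp8 cKO libraries, against 1.01 in wildtype. The wildtype interval, 0.748 to 1.37, overlapped those of Sp6 cKO (1.31 to 3.11), Sp8 cKO (1.20 to 2.28) and Sp6+Sp8 cKO (1.05 to 2.14).

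**Figure D2:**
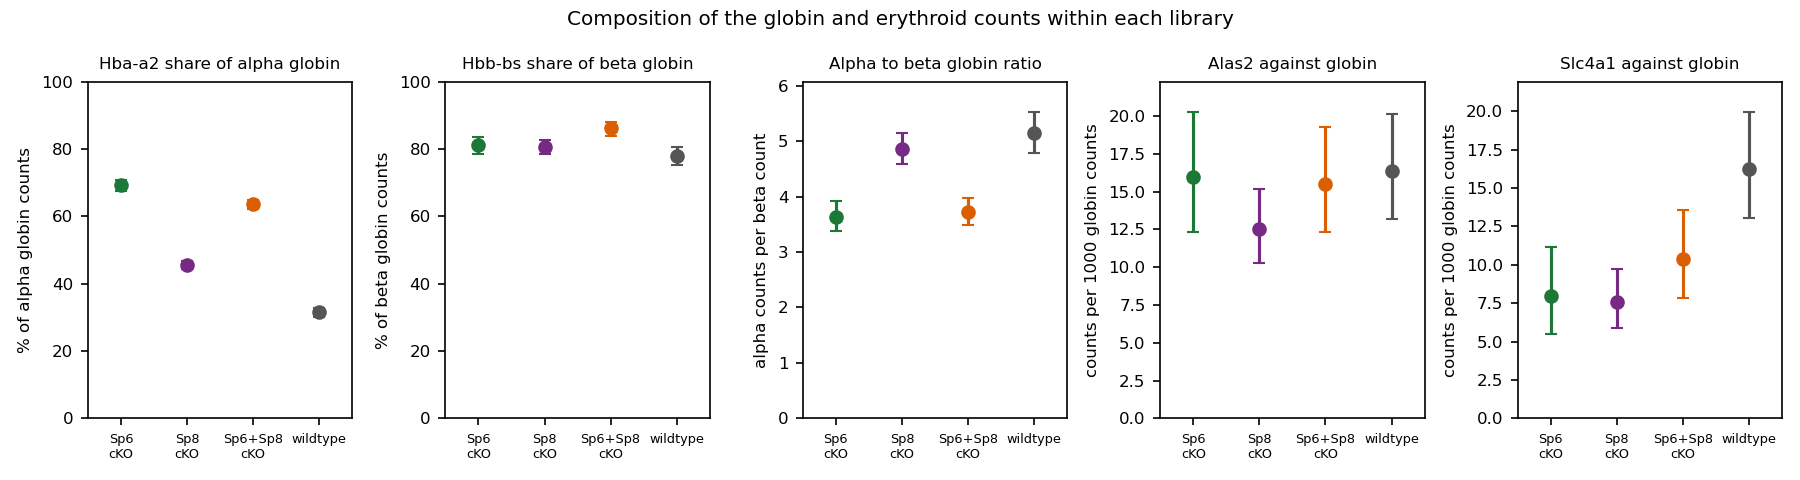
Composition of the globin and erythroid counts within each of the 4 libraries (x axis), as the share of Hba-a2 and of Hbb-bs in their pair (percent), alpha counts per beta count, and Alas2 and Slc4a1 counts per 1000 globin counts, each with its exact 95% interval for counting error. The Hba-a2 share runs between 31.5% in wildtype and 69.2% in Sp6 cKO, and Slc4a1 per 1000 globin counts is highest in wildtype at 16.2.

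To count genes that differed between libraries, a gene was placed past a size rule when its log2 ratio of CPM was at least 1 in either direction, its CPM was at least 1 in 1 of the libraries, and the exact interval of the ratio excluded 1. All 6 genes had the CPM required in every comparison. In Sp8 cKO against wildtype 4 of 6 were higher past the rule and 0 were lower, where 2.27% of all 16878 genes compared were higher, 1.55% lower and 3.82% either. Those 4 are the globin genes, at log2 ratios of 1.05 for Hba-a1, 1.91 for Hba-a2, 1.51 for Hbb-bs and 1.26 for Hbb-bt, and they amount to 2 pools of shared fragments. With libraries scaled by their summed endothelial counts 3 of 6 were past the rule, since Hba-a1 was then at 0.90. The share of all genes past the rule was not computed under that scaling. In the main setting Alas2 fell just short of the rule at 0.98 and Slc4a1 was at 0.29. The median over the 6 genes was 1.15, against -0.01 over all genes compared.

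In Sp6 cKO against wildtype only Hba-a2 was past the rule, where 2.24% of all genes were higher, 2.16% lower and 4.4% either. In Sp6+Sp8 cKO against wildtype it was again only Hba-a2, at 1.34, where 2.84% of all genes were higher, 2.95% lower and 5.79% either. Neither single call extended to the alpha sum, at 0.26 and 0.33. The medians over the 6 genes were 0.42 in Sp6 cKO and 0.22 in Sp6+Sp8 cKO.

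Within batch 1 Sp8 cKO was above both other cKO libraries. It also stood apart from them for Xist, at 27.9 CPM in Sp8 cKO, 1963 CPM in Sp6 cKO and 3528 CPM in Sp6+Sp8 cKO, and the part of whatever sets Xist in the globin difference was not tested. Against Sp6 cKO its globin sum was 2.05-fold higher (95% interval 1.98 to 2.13), with all 6 genes above 0 at log2 ratios between 0.51 for Hba-a2 and 1.94 for Hba-a1. Hba-a1 was the 1 gene past the rule, where 1.75% of all genes were higher, 1.35% lower and 3.1% either. Slc4a1, at 0.94, was 1.96-fold higher (1.27 to 3.06), so here the membrane gene had the direction of the globin genes.

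Sp6+Sp8 cKO against Sp8 cKO had a globin sum 1.97-fold lower (95% interval 1.91 to 2.04), and all 6 genes had log2 ratios below 0. Hba-a1 and Hbb-bt were lower past the rule, at -1.63 and -1.13, where 2.8% of all genes were lower, 1.88% higher and 4.68% either. The median over the 6 genes was -0.62, against -0.02 over all genes. Sp6+Sp8 cKO against Sp6 cKO had a globin sum 1.04-fold higher, and the interval of 0.998 to 1.08 included 1. None of the 6 genes was past the rule between them, where 1.89% of all genes were higher, 2.08% lower and 3.97% either.

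**Figure D3:**
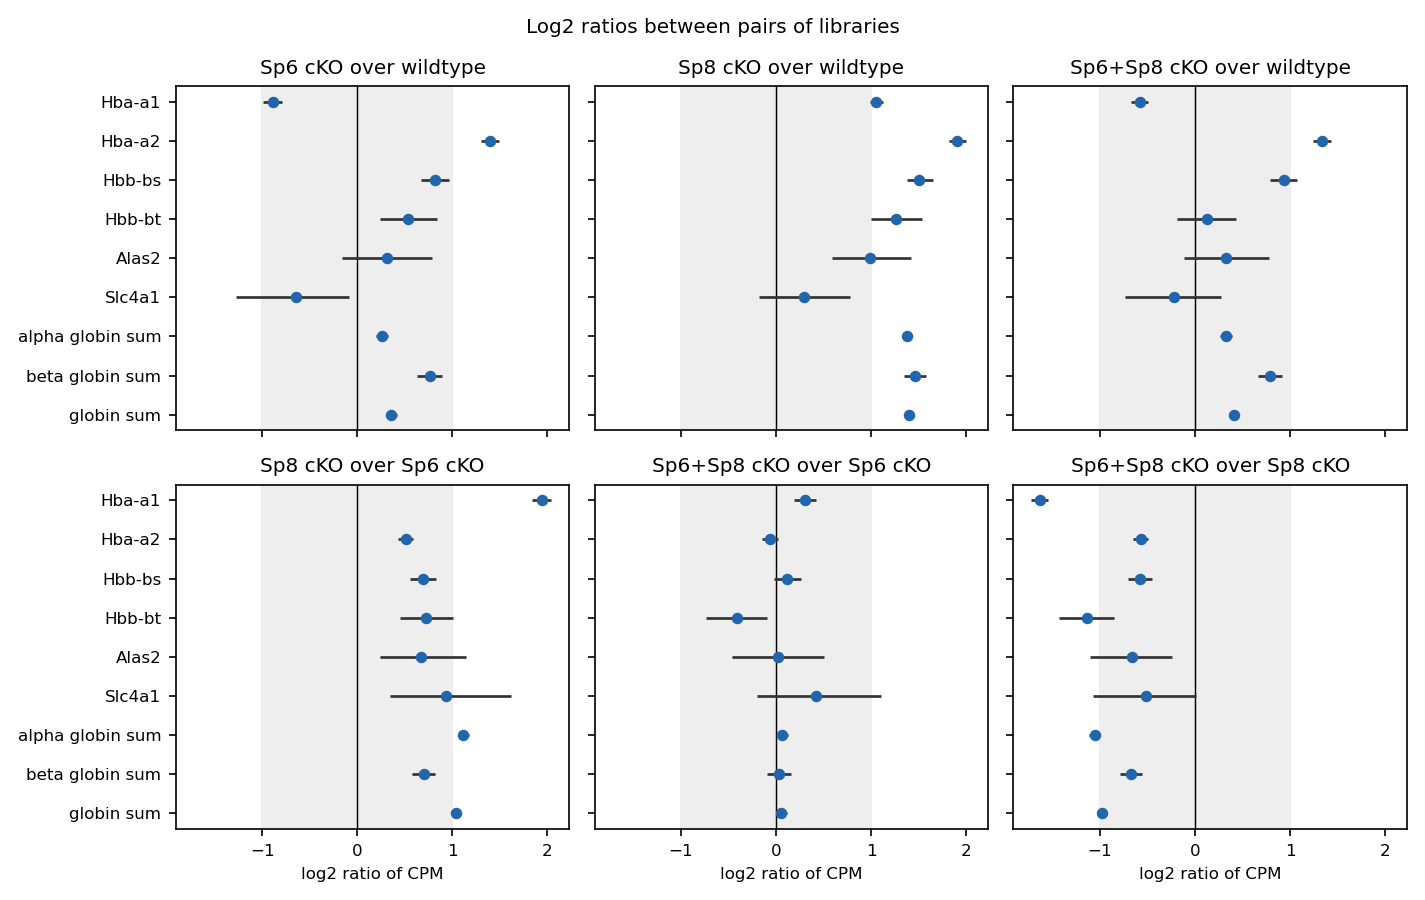
Log2 ratio of CPM (x axis) for each gene and for the alpha, beta and whole globin sums (y axis) in the 6 comparisons, with 95% intervals for counting error as lines and the range inside a 2-fold difference shaded. In Sp8 cKO over wildtype the 4 globin genes lie to the right of the shaded range, and in Sp6 cKO over wildtype Hba-a1 and Hba-a2 lie on opposite sides of 0 while the alpha sum is at 0.26.

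Other genes of red cells and their precursors gave little signal. The embryonic globin genes Hba-x, Hbb-y, Hbb-bh1 and Hbb-bh2 had 0 counts in all 4 libraries, and 3 counts, the limit that a count of 0 allows, amount to 0.138 to 0.238 CPM across the libraries. Hbq1a and Hbq1b, the theta globin genes, had at most 2 counts. Kel, which encodes a red cell blood group protein, was at 0 throughout. Klf1, a factor that drives beta globin transcription in precursors, had 5, 2 and 4 counts in the Sp6, Sp8 and Sp6+Sp8 cKO libraries, against 9 in wildtype. Scaled for depth, Klf1 was at 0.388, 0.159 and 0.260 CPM, against 0.414 CPM in wildtype. Every Klf1 interval of a cKO library against wildtype included 1. Gata1, a master factor of red cell precursors that is also used by mast cells and megakaryocytes, had 6, 9 and 8 counts, against 2 in wildtype, all under 1 CPM. Epor, the erythropoietin receptor gene, had at most 6 counts in any library.

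The other erythroid lists held no gene past the size rule. Of 8 haem synthesis genes shared by all cells, 11 of 17 measured genes of the red cell membrane and cytoskeleton, 13 of 19 late erythroid genes and 8 iron uptake genes, none was past the rule in any of the 6 comparisons. In Sp8 cKO against wildtype their median log2 ratios were 0.03, 0.13, -0.02 and 0.15, and that of the 5 measured erythroid transcription factors was 0.01. Many of these genes are also expressed outside red cells. Fech, whose enzyme inserts iron in the last step of haem synthesis, was at 86.6, 87.2 and 88.5 CPM in the Sp6, Sp8 and Sp6+Sp8 cKO libraries, against 75.2 CPM in wildtype. Gypc, a membrane skeleton anchor found in many cell types, had log2 ratios to wildtype of 0.75, 0.65 and 0.59 in those libraries. In the list for clearance of haemoglobin and haem, Hmox1, the enzyme that degrades haem, was the 1 of 7 measured genes past the rule in Sp6+Sp8 cKO, lower at 50.0 CPM against 104 CPM in wildtype, and no gene of the list was past it in the other cKO libraries. No hypoxia response gene of 11 was past the rule in any cKO library against wildtype, and Epo, the hormone that drives red cell production, had 0 counts in every library. Adm, a hypoxia-induced vasodilator peptide gene, was lower past the rule in Sp6+Sp8 cKO against Sp8 cKO, at -1.07. Cygb, a globin of fibroblast-like cells and the 1 measured globin gene outside the red cell loci, had log2 ratios to wildtype of 0.07, 0.31 and 0.23 in the Sp6, Sp8 and Sp6+Sp8 cKO libraries.

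Summed levels of platelet, B cell and endothelial genes were also highest in Sp8 cKO. These sums are given without intervals, so a small lead such as that of the platelet genes cannot be told from counting error. Of 6 measured platelet and megakaryocyte genes none was past the rule in Sp8 cKO against wildtype, and their median was 0.29. The summed level of all 12 listed genes was 38.9, 47.2 and 43.0 CPM in the Sp6, Sp8 and Sp6+Sp8 cKO libraries, against 36.3 CPM in wildtype. Without Itgb3, an integrin gene that is on the osteoclast list too, that sum was 21.2, 23.5 and 17.7 CPM in the Sp6, Sp8 and Sp6+Sp8 cKO libraries, against 21.75 CPM in wildtype, so Sp6+Sp8 cKO was then below wildtype. Gp1ba, a von Willebrand factor receptor subunit of platelets, was past it in Sp6 cKO at 1.14. In Sp8 cKO against wildtype Ppbp, a platelet chemokine gene, was at -0.45 and Itga2b at -0.36. There Pf4, Gp1ba, Gp1bb and Itgb3 were at 0.34, 0.50, 0.23 and 0.70. Of 15 endothelial genes none was past the rule in any cKO library against wildtype, and the medians were 0.00, 0.19 and -0.30 in the Sp6, Sp8 and Sp6+Sp8 cKO libraries. The summed level of the endothelial genes was 428, 467 and 356 CPM, against 421 CPM in wildtype. Marrow granulocyte precursor genes had a median of 0.09 in Sp8 cKO, where 1 of 6 measured, Camp, was lower past the rule with 1 count, against 23 in wildtype (95% interval of the fold 0.00182 to 0.462). Mpo (myeloperoxidase) and Elane (neutrophil elastase) were lower past the rule in Sp6+Sp8 cKO, at -1.34 and -1.39.

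The neutrophil sum was carried by 3 genes. Of 8 measured neutrophil genes 4, 3 and 4 were higher past the rule in the Sp6, Sp8 and Sp6+Sp8 cKO libraries against wildtype. The summed level of all 9 listed genes was 198, 229 and 284 CPM in those libraries, against 79.3 CPM in wildtype. S100a8, S100a9 and Mmp9, which other cells such as keratinocytes and osteoclasts can express, were among the genes past the rule in each cKO library. Without those 3 genes the sum was 43.4, 35.4 and 34.8 CPM in the Sp6, Sp8 and Sp6+Sp8 cKO libraries, against 38.8 CPM in wildtype, which puts Sp8 cKO and Sp6+Sp8 cKO below wildtype. Csf3r was the other gene past the rule in Sp6 cKO and Sp6+Sp8 cKO, at log2 ratios to wildtype of 1.12 and 1.08. It was at 0.72 in Sp8 cKO. Cxcr2 was at 0.55, -0.38 and 0.50 in the Sp6, Sp8 and Sp6+Sp8 cKO libraries. Retnlg, Mmp8 and Il1r2, further genes of the list, had log2 ratios of -0.29, -0.77 and -0.78 in Sp6+Sp8 cKO against wildtype. Osteoclast genes, which share Mmp9 with the neutrophil list, had summed levels of 428, 548 and 574 CPM, against 288 CPM in wildtype, and medians of 0.44, 0.85 and 1.06, with 1, 4 and 5 of 10 measured genes higher past the rule. B cell genes had a median of 0.74 in Sp8 cKO against wildtype, where Igkc, an immunoglobulin light chain gene, was at 1.80 and was the 1 of 4 measured genes past the rule. In Sp6+Sp8 cKO against Sp8 cKO, Igkc, Ighm and Ighd were lower past the rule, with a list median of -1.06. The B cell sum was 22.9, 30.8 and 14.4 CPM in the Sp6, Sp8 and Sp6+Sp8 cKO libraries, against 19.5 CPM in wildtype. The part of any of these cells in the globin difference was not tested.

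**Figure D4:**
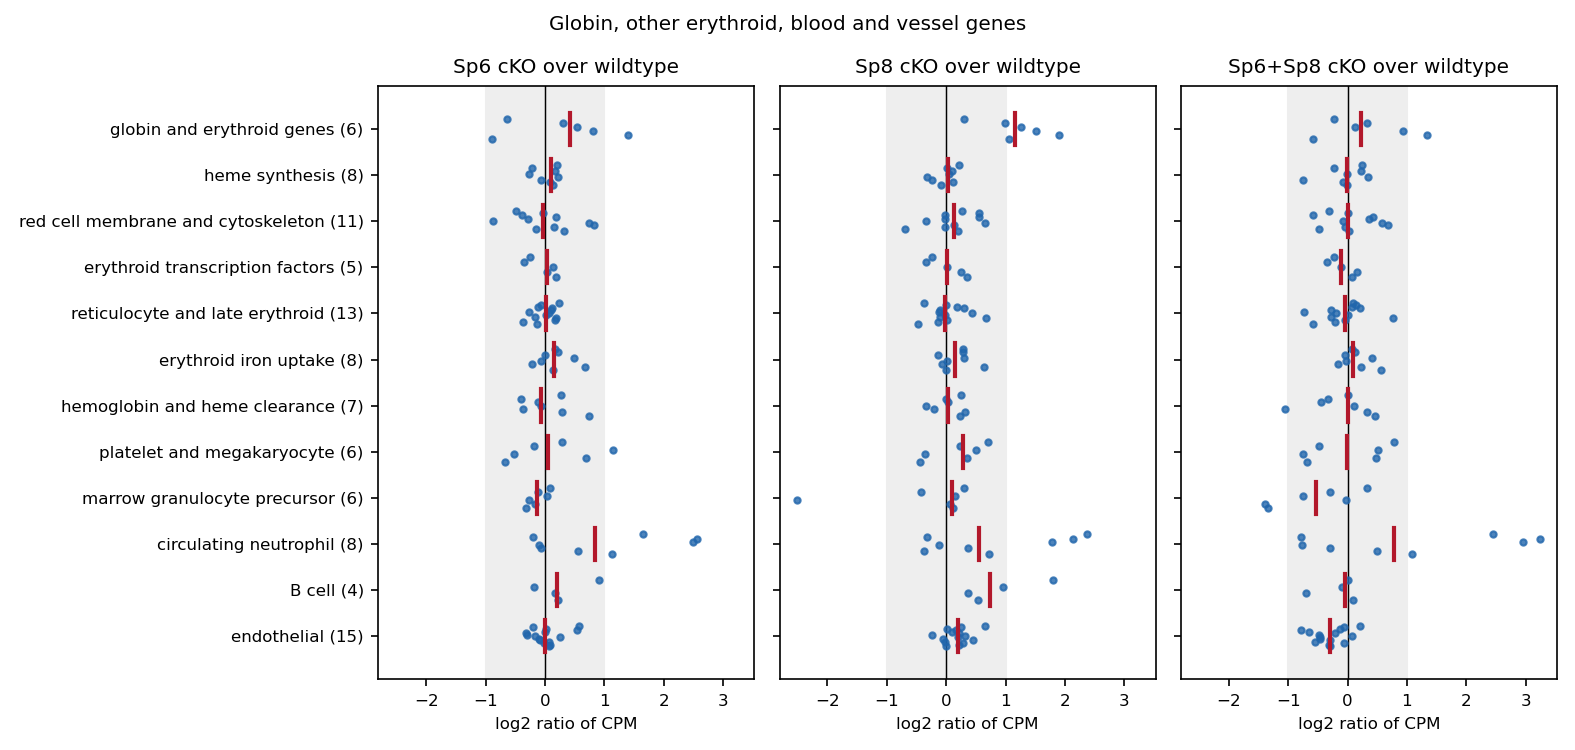
Log2 ratio of CPM to wildtype (x axis) of each measured gene (points) and list median (red bars) in the 3 cKO libraries, for the globin and erythroid genes and for lists of other erythroid, blood and vessel genes (y axis, with the number of genes measured), with the range inside a 2-fold difference shaded. In Sp8 cKO the median is 1.15 for the globin and erythroid genes and 0.03 for haem synthesis, and the points of the neutrophil list that lie far to the right in all 3 panels are S100a8, S100a9 and Mmp9.

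The genes most like the globin sum across the 4 libraries were ranked by the Euclidean distance between mean-centred log2 CPM values, over 11830 protein-coding genes with at least 5 CPM in 1 library. The nearest 10 were Gm11555, Ccl9, Nptx1, Gja5, Krtap19-5, Prrt2, Ctsk, Ifih1, Mdga1 and Mgl2, at distances between 0.21 and 0.44. Gm11555 was at 150, 298 and 132 CPM in the Sp6, Sp8 and Sp6+Sp8 cKO libraries, against 120 CPM in wildtype. Ctsk, a collagen-degrading protease of osteoclasts, was at 61.7, 92.6 and 64.3 CPM, against 37.1 CPM in wildtype. Gja5, a connexin of arterial endothelium, was at 2.95, 5.48 and 3.97 CPM, against 2.30 CPM in wildtype. Alas2, which is not part of the sum, lay at 0.32, and only 1 of the 11830 genes lay closer. Slc4a1 lay at 0.86, with 896 genes closer. Hba-a1 and Hba-a2, both parts of the sum, lay at 1.00 and 0.81, further out than Alas2.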

How the data were processed

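Per the labels' protocols, poly-A RNA of pulverised digit tips trimmed at the distal interphalangeal joint went into dUTP libraries that keep strand, sequenced as paired reads of 150 bases. Per the submitters' processing notes, the build was GRCm38 and the tools were Salmon, deepTools, edgeR, featureCounts, STAR and Trim Galore 0.6.4, with no role given. The authors deposited estimated counts for each gene, which were not scaled for depth and were rounded to whole numbers here. The table held 1 further column that was not used. TMM factors (edgeR 4.0.16, R 4.3.3) over the 4 libraries gave CPM, and log2 ratios of single genes used a prior count of 2, while sums used none. Intervals of ratios are exact Clopper-Pearson 95% intervals conditional on the sum of both counts, and levels have exact Poisson intervals. Both cover counting error only, and PCR copies were not collapsed by molecular identifiers, so reads are not independent molecules. For single globin genes they also leave out error in dividing shared fragments within a pair. Positions and transcripts came from GENCODE M21 (98.8% of identifiers matched), and promoters from RefSeq. List genes counted as measured with a CPM of at least 1 in 1 of the 4 libraries, and comparisons took genes with that CPM in 1 of their 2 libraries. Summed levels took all genes of a list, measured or not. Where identifiers shared a symbol, the one with the highest mean CPM was used. Ahsp, on the late erythroid list, was not analysed here.

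The genes, the 17 other lists, the size rule and the alternatives (DESeq2 1.42.0 size factors among them) were chosen with earlier results of these data known. The genes named are the 6 genes in full, up to 4 of each list past the size rule per comparison, and the 10 most like the globin sum. Other genes named, such as Gypc, Fech, Klf1 and Ppbp, were chosen after their values were seen. The procedure was tested on simulated data.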

Additional observations from a re-analysis of the deposited data

How the results depend on the processing

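Of 144 recomputed values, 109 stayed close to the main value. For a summed log2 ratio that meant within counting error, and for a count of genes within 1.5 times. No globin sum past 2-fold changed direction. Summing only alpha globin genes gave log2 ratios of 0.26, 0.33, 1.12 and -1.05 for Sp6 cKO over wildtype, Sp6+Sp8 cKO over wildtype, Sp8 cKO over Sp6 cKO and Sp6+Sp8 cKO over Sp8 cKO. Only beta globin genes gave 0.76, 0.79, 0.70 and -0.67 for these, and 1.46 for Sp8 cKO over wildtype. Scaling by summed endothelial counts gave globin sums of 1.24 and 0.66 for Sp8 cKO and Sp6+Sp8 cKO over wildtype. The same scaling gave 0.91 for Sp8 cKO over Sp6 cKO, and 0.32 and -0.59 for Sp6+Sp8 cKO over Sp6 cKO and Sp8 cKO. It put 3 of the 6 genes past the rule in Sp8 cKO over wildtype in place of 4 (without Hba-a1), 2 in Sp6+Sp8 cKO over wildtype and 1 in Sp6+Sp8 cKO over Sp8 cKO. Under that scaling the median log2 ratio of all genes was -0.16 in Sp8 cKO over wildtype, against -0.01 in the main setting. In Sp6+Sp8 cKO over wildtype it was 0.23, against -0.02. At a log2 ratio of at least 2, 0 of the 6 genes passed in any comparison. At 1.5-fold, 4 passed in Sp6 cKO over wildtype (2 higher, 2 lower), 2 in Sp6+Sp8 cKO over wildtype and 5 in Sp8 cKO over Sp6 cKO. The share of all genes past the rule was not computed under endothelial scaling, at a log2 ratio of 2 or at 1.5-fold. Counts of the 6 genes in those settings therefore have no background beside them and cannot be called unusual. With a CPM of at least 5, genes past the rule over the whole table numbered 255, 192 and 376 for the Sp6, Sp8 and Sp6+Sp8 cKO libraries over wildtype, 135 for Sp8 cKO over Sp6 cKO, and 214 and 277 for Sp6+Sp8 cKO over Sp6 cKO and Sp8 cKO, since fewer genes were compared. The main counts were 743, 645, 976, 525, 669 and 790 in that order. The balance of all genes higher and lower turned under library totals alone, to 360 and 374 in place of 379 and 364 in Sp6 cKO over wildtype, and to 348 and 302 in place of 318 and 351 in Sp6+Sp8 cKO over Sp6 cKO. In Sp6+Sp8 cKO over wildtype it turned to 493 and 485 under DESeq2 size factors and to 508 and 474 under library totals, in place of 479 and 497. Leaving S100a8, S100a9 and Mmp9 out of the neutrophil sum, a choice made after seeing the data as was leaving out Itgb3, reversed its log2 ratio over wildtype, to -0.13 for Sp8 cKO and to -0.16 for Sp6+Sp8 cKO. The cause of the other shifts was not tested. No paired analysis was possible because each genotype has 1 library. At 34 to 107 counts, Alas2 and Slc4a1 limit what can be read from them.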
